A study of Drosophila melanogaster with 18 samples.

Results

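The Hox genes are the homeobox transcription factors that give each body segment of the embryo its identity, and the values here describe them in whole Drosophila melanogaster embryos in which genes of the E2F/Rb network had been manipulated. The 8 Hox genes of the fly (lab, pb, Dfd, Scr, Antp, Ubx, abd-A and Abd-B) were looked for by symbol, older synonym and gene identifier in the annotation of an Affymetrix array with 13966 probe sets, of which 12443 map to 1 gene. Of the 8, 4 had a probe set under their name: pb, Dfd and Scr had 1 each and Antp had 2, among 10844 genes named by the annotation. lab, Ubx, abd-A and Abd-B had 0 probe sets that map to them alone and were not analysed here. The 327 probe sets that map to several genes were not counted for any gene. Of the 4 unmeasured genes, 3 are those of the bithorax complex (Ubx, abd-A and Abd-B).

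RNA from 18 pools of about 200 to 700 embryos was hybridised to 1 array each, in 9 groups of 2 arrays. At 8 to 10 h of development the ubiquitous Arm-Gal4 driver, which carries the promoter of the broadly active armadillo gene, expressed E2f1 together with Dp, E2f2 together with Dp, a dominant negative E2f1 fragment without its DNA-binding domain (E2f1336-805), or Rbf1. Embryos of the same age that were transheterozygous for null alleles were Dpa2/Dpa4 (Dp mutants) and E2f17172/E2f191 (E2f1 mutants), and the control was Arm-Gal4 crossed to yw. At 14 to 16 h the groups were E2f17172/E2f191 mutants and the same control cross. Dp mutants came from stocks over CyO[Kr-GFP] and E2f1 mutants from stocks over TM3[Kr-GFP]. Embryos without the fluorescent balancer were picked by an automated sorter at 8 to 10 h and by hand at 14 to 16 h. Mutants and control therefore differ in driver, stock background and selection as well as in genotype, and these cannot be told apart. The mothers of mutant embryos carried a wild-type copy, so maternally supplied product can remain in the mutants as background. The labels do not say that the 2 arrays of a group are separate collections, so the spread between them may be technical.

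E2F proteins bind DNA as dimers with Dp, E2f1 mostly as an activator and E2f2 as a repressor, and Rbf1 (gene symbol Rbf) is the retinoblastoma-family protein that binds them. Their known targets are genes of DNA replication and the cell cycle. In the fly the Hox genes lie in 2 clusters on chromosome arm 3R, the Antennapedia complex (lab, pb, Dfd, Scr, Antp) and the bithorax complex (Ubx, abd-A, Abd-B), and are transcribed in successive domains from head to tail. Segmentation genes set these domains early. Polycomb group proteins then keep the genes silent outside their domains and Trithorax group proteins keep them active within. Each Hox gene is active in a band of segments, so an array of whole embryos averages over cells with and without its transcript. Fewer cells that express a gene and less RNA per cell cannot be told apart in these pools.

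The manipulated genes were read first. E2f2 had signals of 20546.6 and 21201 in embryos expressing E2f2 with Dp, against 2431 and 1940.4 in control embryos. Dp had 5779.9 and 5163.5 with E2f1/Dp and 512.5 and 695.8 in Dp mutants, against 2122.2 and 1615.4 in the control. Rbf had 2270.5 and 1998.9 in embryos expressing Rbf1, against 323.5 and 248.3 in the control. These differences passed the test used throughout, limma's moderated test with Benjamini-Hochberg adjustment at 0.05. E2f1 itself passed in no comparison of a genotype with its control, with 9991 and 6412.9 in E2f1/Dp embryos and 350.5 and 820.2 in E2f1 mutants, against 2680.5 and 1317.6 in the control.

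The 4 measured Hox genes did not pass the test in any of the 10 comparisons, and their probe sets were dim and varied between arrays of a group. Of 40 tests (4 genes, 10 comparisons) 0 passed after adjustment, and 0 had an unadjusted p under 0.05. The lowest unadjusted p, 0.119, was that of pb in early E2f1 mutants (8 to 10 h), and the lowest adjusted p was 0.297, for Dfd between the ages of the E2f1 mutants. Over all 8975 units tested (1 probe set per gene), the share that passed after adjustment was 0.0891% with E2f1/Dp, 0.078% with E2f2/Dp, 0.791% with the E2f1 fragment, 1.44% with Rbf1, 4% for Dp mutants and 2.55% for early E2f1 mutants. The share was 5.6% for late E2f1 mutants, 43.2% between control ages, 35.7% between E2f1 mutant ages and 2.75% for the difference of the E2f1 mutant effect between ages. At these shares, 0 of 4 is near the background in every comparison of genotypes, and between ages it is below it, with 4 genes too few to tell. An unadjusted p under 0.05 was held by 8.55% of all units with E2f1/Dp, 8.8% with E2f2/Dp, 10.7% with the fragment, 13.2% with Rbf1, 19.7% for Dp mutants, 18.2% for early and 18.3% for late E2f1 mutants. For the ages these shares were 50.9% in the control and 44.4% in E2f1 mutants, and 17.4% for the difference of the mutant effect.

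**Figure D1:**
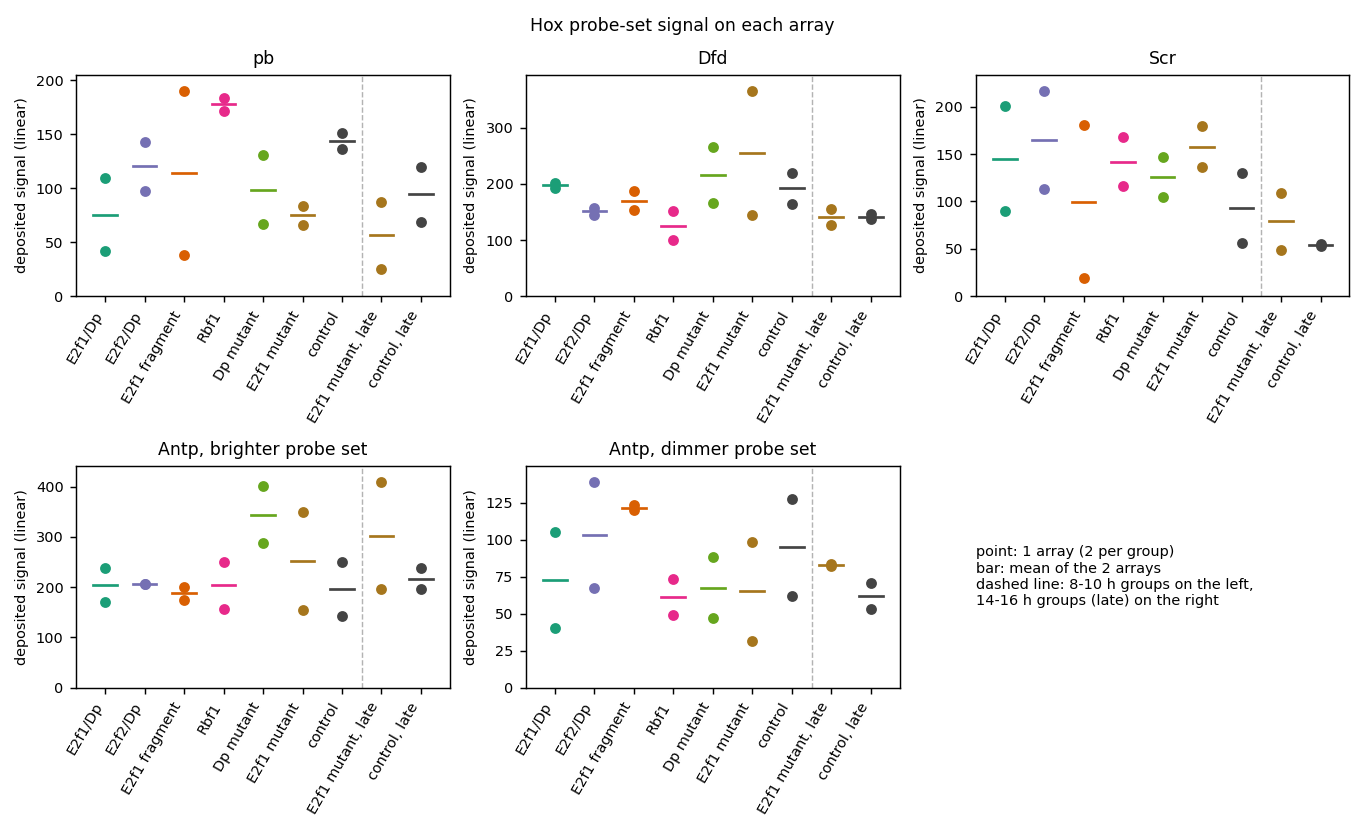
Deposited signal (y axis, linear) of the 5 Hox probe sets by group (x axis), with 1 point per array, a bar at the mean of the 2 arrays and a dashed line between the groups of 8 to 10 h and those of 14 to 16 h (late). Scr with the E2f1 fragment, at 180.8 and 18.8, shows how far arrays of a group can lie apart, and the 2 Antp panels differ in which groups are high.

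pb (proboscipedia) specifies mouthparts of the adult and is expressed in the gnathal segments of the embryo. Its signal was 109.3 and 42.1 in E2f1/Dp embryos, 143 and 97.7 in E2f2/Dp embryos, 37.9 and 190.2 with the E2f1 fragment, 184.1 and 172 with Rbf1, 131 and 66.7 in Dp mutants and 84 and 66.5 in E2f1 mutants, against 136.6 and 151.7 in the control at 8 to 10 h. At 14 to 16 h it was 87.7 and 25 in E2f1 mutants, against 68.9 and 120.1 in the control. The lowest and the highest early value came from the same group, the embryos with the E2f1 fragment. Over all groups 3 of 18 arrays lay at the floor, which is the 20th percentile of all values on all arrays (signal 47.5). The log2 change of the group mean was -1.08 in E2f1/Dp embryos (SE 0.66, 95% interval -2.48 to 0.32, limma adjusted p = 0.681) and -1.09 in E2f1 mutants at 8 to 10 h (interval -2.49 to 0.31, adjusted p = 0.407). It was -0.39 with E2f2/Dp, -0.65 with the fragment, -0.69 in Dp mutants, 0.34 with Rbf1 and -0.37 in late E2f1 mutants, all with the same SE. The mean was thus below the control's in 6 of 7 comparisons, 6 of which share the early control arrays. On the normalized log2 scale, pb arrays did not overlap the control's in 5 of these 7.

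Dfd (Deformed) specifies the mandibular and maxillary segments. Its signal was 192.6 and 202.2 in E2f1/Dp embryos, 157.3 and 145.3 in E2f2/Dp embryos, 186.9 and 154 with the E2f1 fragment, 99.4 and 151.9 with Rbf1, 165.9 and 265.4 in Dp mutants and 365.3 and 145 in E2f1 mutants, against 219 and 165.1 in the control at 8 to 10 h. At 14 to 16 h it was 127 and 155.5 in E2f1 mutants, against 136.9 and 145.6 in the control. The highest and the second lowest early value came from the same group, the E2f1 mutants. Log2 changes against the control ranged from -0.51 with Rbf1 (SE 0.45, interval -1.47 to 0.45, limma adjusted p = 0.685) to 0.24 in early E2f1 mutants (interval -0.72 to 1.21, adjusted p = 0.832). The mean was higher in 4 and lower in 3 of the 7 comparisons, and in 1 of them, with E2f2/Dp, the normalized arrays did not overlap. Dfd was above the floor on all 18 arrays.

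Scr (Sex combs reduced) specifies the labial and first thoracic segments and the embryonic salivary glands. Its signal was 200.6 and 89.8 in E2f1/Dp embryos, 216.5 and 113.1 in E2f2/Dp embryos, 180.8 and 18.8 with the E2f1 fragment, 115.9 and 167.6 with Rbf1, 105.2 and 146.4 in Dp mutants and 179.1 and 136.1 in E2f1 mutants, against 56.2 and 130.1 in the control at 8 to 10 h. At 14 to 16 h it was 108.8 and 49.1 in E2f1 mutants, against 52.7 and 55.5 in the control. The control array at 56.2 was the second lowest of the 14 early arrays, while the other control array lay among the remaining groups. Log2 changes were above 0 in 7 of 7 comparisons, from 0.09 with the E2f1 fragment to 0.75 in early E2f1 mutants (SE 0.67, interval -0.68 to 2.18, limma adjusted p = 0.604), and 6 of the 7 share the early control. The value of 0.09 turned negative without the floor, at -0.64, as 1 array of the fragment group lies under it. On the normalized scale the arrays did not overlap in 3 of 7.

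Antp (Antennapedia) specifies thoracic identity. The brighter of its probe sets read 238.2 and 170.3 in E2f1/Dp embryos, 205.2 and 207.1 in E2f2/Dp embryos, 200.6 and 174.6 with the E2f1 fragment, 157.4 and 250.5 with Rbf1, 287.8 and 401.1 in Dp mutants and 349.7 and 155.2 in E2f1 mutants, against 143.3 and 249.1 in the control at 8 to 10 h. At 14 to 16 h it read 196.4 and 408.6 in E2f1 mutants, against 195.8 and 237.7 in the control. Dp mutants were the single group whose normalized arrays both lay above those of the control. The log2 change there was 0.73 (SE 0.45, interval -0.24 to 1.69, limma adjusted p = 0.408). It was 0.52 in late E2f1 mutants (interval -0.45 to 1.48, adjusted p = 0.628) and lay between -0.03 and 0.20 in the other 5 comparisons. The other Antp probe set was dimmer and fell under the filter on low values, so it was not tested. It read 88.5 and 46.8 in Dp mutants, against 127.8 and 62.2 in the control, the reverse order of the brighter set. Over the 18 arrays the log2 values of the 2 Antp probe sets had a Pearson r of -0.39, and over the 14 early arrays of -0.57, so the 2 readings of this gene did not follow each other. These points share arrays and their normalization.

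**Figure D2:**
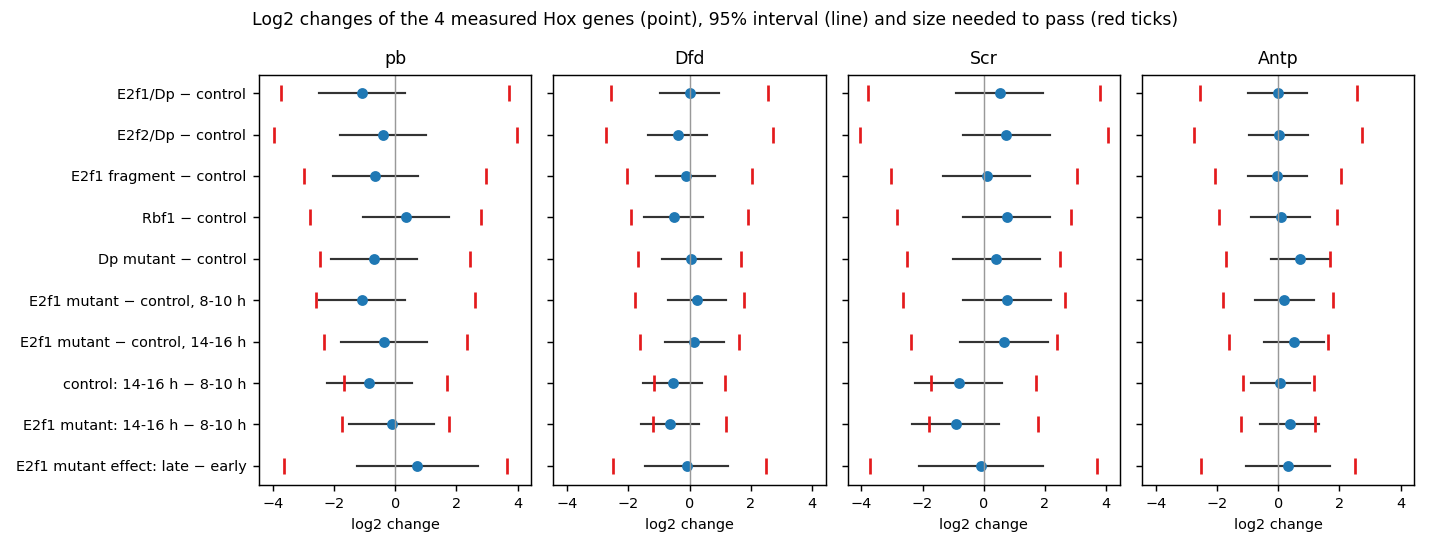
Log2 change (x axis, point) of pb, Dfd, Scr and Antp in the 10 comparisons (rows), with the 95% interval from the limma fit (line) and the size that would have passed (red ticks). Every interval includes 0, no point reaches a tick, and the lines of pb and Scr are longer than those of Dfd and Antp.

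Groups often did not overlap for the Hox genes, and often not for other units, so with 4 genes these counts lie near the background. Normalized values of the compared groups did not overlap for 1 of 4 Hox genes with E2f1/Dp, where 32.4% of all units did not overlap, and for 2 of 4 with E2f2/Dp, where the share was 34.1%. The counts were 0 of 4 with the E2f1 fragment (36.3% of all units), 2 of 4 with Rbf1 (42.9%), 2 of 4 in Dp mutants (46.3%), 2 of 4 in early E2f1 mutants (43.8%) and 1 of 4 in late E2f1 mutants (51.7%). Between ages the counts were 3 of 4 in the control (71.7%) and 1 of 4 in E2f1 mutants (67.8%).

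Between the ages, pb, Dfd and Scr had lower normalized means in later embryos, in control and E2f1 mutants alike, and 0 of these differences passed. In control embryos at 14 to 16 h against 8 to 10 h the log2 change was -0.84 for pb (interval -2.24 to 0.56, limma adjusted p = 0.321), -0.55 for Dfd (interval -1.51 to 0.41, adjusted p = 0.346), -0.83 for Scr (interval -2.25 to 0.60, adjusted p = 0.341) and 0.07 for Antp (interval -0.90 to 1.03, adjusted p = 0.918). Scr read 52.7 and 55.5 in late control embryos, against 56.2 and 130.1 in early ones. In E2f1 mutants the age difference was -0.12 for pb, -0.64 for Dfd, -0.92 for Scr and 0.38 for Antp. The median over the 4 genes was -0.69 in the control, against -0.19 over all units, and -0.38 in the mutants, against -0.15 over all units. The effect of the E2f1 mutation did not pass as different between ages for any of the 4, with log2 differences (late minus early) of 0.72 for pb, -0.09 for Dfd and for Scr, and 0.31 for Antp.

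The order of the 9 groups was therefore loose. Ranked by normalized log2 mean, pb was highest with Rbf1 (mean signal 178 ± 8.56, SD, n = 2) and lowest in late E2f1 mutants (56.4 ± 44.3). Neighbours in the pb order overlapped in 6 of 8 steps, the exceptions being Rbf1 against control and E2f2/Dp against control at 8 to 10 h. Dfd was highest in early E2f1 mutants (255 ± 156) and lowest in late control embryos (141 ± 6.15), with overlap in 7 of 8 steps. Scr ran from early E2f1 mutants (158 ± 30.4) to late control embryos (54.1 ± 1.98), with overlap in 7 of 8 steps. By mean deposited signal, Scr was instead highest with E2f2/Dp (164.8) and Dfd lowest with Rbf1 (125.65). The brighter Antp probe set ran from Dp mutants (344 ± 80.1) to embryos with the E2f1 fragment (188 ± 18.4), with overlap in 8 of 8. The dimmer Antp probe set placed these 2 groups the other way. It was highest with the fragment (mean signal 121.65), with Dp mutants (67.65) at rank 8 and late control embryos (62) at rank 9. By normalized log2 mean the highest group exceeded the lowest 2.93-fold for pb, 1.74-fold for Dfd, 2.98-fold for Scr and 1.69-fold for the brighter Antp set. These describe extremes, with no test. Probe-set signals are not comparable between genes, so no order among the 4 genes is given.

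The sizes that could have passed were larger than these differences. The SE of a log2 change, 0.66 for pb, 0.45 for Dfd, 0.67 for Scr and 0.45 for Antp, was larger than that of 89.8% of all units for pb and 90.8% for Scr, and than that of 66.7% for Dfd and 67.0% for Antp. To reach the p of the last unit that passed between control ages, a change of 3.21-fold was needed for pb, 2.23-fold for Dfd, 3.28-fold for Scr and 2.24-fold for Antp. With E2f1/Dp, where few units passed, the corresponding sizes were 13.1-fold, 5.86-fold, 13.8-fold and 5.92-fold, and in late E2f1 mutants 5.06-fold, 3.05-fold, 5.23-fold and 3.07-fold. These are sizes of an observed change, and they depend on how many other units passed as well as on the SE. For pb the SE was the same in every comparison of 2 groups, yet the size was 15.6-fold with E2f2/Dp. They are not limits on a true difference. Median ranks on the array were the 32.3rd percentile for pb, 41.2 for Dfd, 35.2 for Scr and 47.9 for Antp, so all 4 medians lay below the middle of the array.

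The tested genes whose log2 signal most resembled each Hox gene over the 18 arrays were drawn from 7923 named genes. They were CG13667 (Pearson r = 0.81) and Dip-C (r = 0.79) for pb, CG4884 (r = 0.73) and CtsB (r = 0.73) for Dfd, Saysd1 (r = 0.83) and coil (r = 0.78) for Scr, and l(2)gl (r = 0.82) and kst (r = 0.80) for Antp. l(2)gl is the cell polarity gene lethal (2) giant larvae and kst encodes the heavy spectrin Karst. These are the highest of many coefficients and describe these arrays alone. Among the Hox genes themselves the r of log2 signal over the 18 arrays ran from -0.31 for pb with Dfd to 0.42 for Dfd with Antp.

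The Antennapedia complex also holds genes that are not Hox genes in function. In the RefSeq annotation (Release 6 plus ISO1 MT) the order along 3R is lab, Edg84A, 7 Ccp84A genes, pb, zen2, CG34297, zen, bcd, Ama, Dfd, Scr, ftz and Antp. Of the 13 non-Hox genes listed for the complex, 8 were tested. Between control ages 5 of these 8 rose, where 17.6% of all units did, and 2 fell, where 25.6% did, with a median log2 change of 1.33 against -0.19 over all units. Ama, which encodes the secreted adhesion protein Amalgam and lies between bcd and Dfd, had signals of 630.3 and 596.8 in late control embryos, against 19612.7 and 8404.6 in early ones. Its log2 change was -4.48 (SE 0.34, limma adjusted p = 2.2e-07). ftz, the pair-rule gene between Scr and Antp, was also lower in late embryos (log2 change -1.04, adjusted p = 0.0131). It did not pass without early control array 1 (adjusted p = 0.128) or late control array 2 (adjusted p = 0.119). The cuticle genes Ccp84Ae (log2 change 1.47, adjusted p = 1.38e-05) and Ccp84Ad (1.64, adjusted p = 0.00146) rose.

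**Figure D3:**
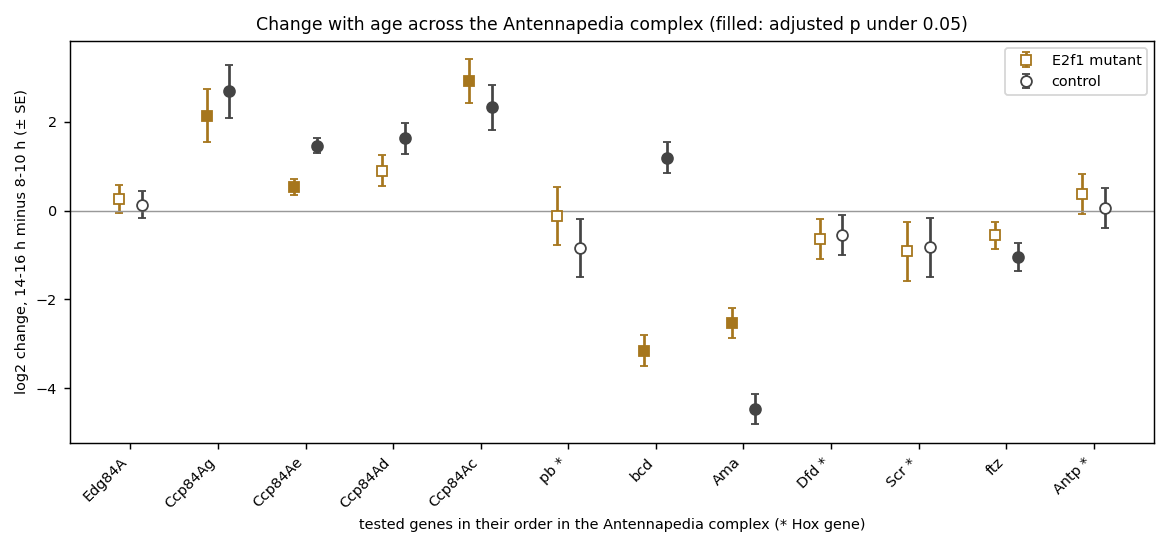
Log2 change with age (y axis, 14 to 16 h minus 8 to 10 h, with SE bars) of the tested genes of the Antennapedia complex in their order on the chromosome (x axis, not to scale), in E2f1 mutants (squares) and control (circles), filled where the change passed. The Ccp84A genes lie above 0 and Ama below it, bcd differs in sign between the groups, and pb, Dfd, Scr and Antp (starred) are open and within 1 log2 unit of 0.

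In late E2f1 mutants 2 of these 8 neighbours passed, where 5.6% of all units did, and 0 of the 4 Hox genes. bcd, known for the maternal transcript that patterns the anterior of the egg, had signals of 87.5 and 10.1 in E2f1 mutants at 14 to 16 h, against 1237.3 and 1005.4 in the control of that age. Both mutant arrays lay below all others of the series, 1 of them at the floor. The log2 change was -4.15 (SE 0.35, limma adjusted p = 3.73e-06), and the change of the mutant effect between ages was -4.35 (SE 0.50, adjusted p = 2.51e-04). In early embryos bcd had 563.6 and 610.9 in E2f1 mutants, against 495.6 and 492.1 in the control. The control signal of its 1 probe set was thus higher in late than in early embryos. Whether that probe set reads the maternal transcript was not tested. Ama was higher in late E2f1 mutants, with 1393.3 and 1937.5, against 630.3 and 596.8 in the control (log2 change 1.36, limma adjusted p = 0.0255). The Ama call was lost without any 1 of these 4 arrays (adjusted p 0.0663 to 0.175), without the filter on dim probe sets (0.0831) or without the eBayes trend (0.0701), and the difference of its effect between ages (1.94, adjusted p = 0.0399) in 9 of 18 alternatives. With the E2f1 fragment 1 of the 8 passed, where 0.791% of all units did: Ccp84Ag read 70 and 571.3, against 1549.6 and 1768.6 in the control (log2 change -2.92, limma adjusted p = 0.0336), and this call was lost without either control array or without fragment array 1 (adjusted p 0.0686 to 0.173), without the filter (0.155) or without the trend (0.108). In the other 5 early comparisons 0 of 8 passed, with 0 to 4 at an unadjusted p under 0.05. Without early control array 2 the count was 1 with E2f2/Dp, in Dp mutants and in E2f1 mutants. Between E2f1 mutant ages 3 of the 8 rose, where 13.9% of all units did, and 2 fell, where 21.7% did, and 1 rose without early or late mutant array 1.

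Polycomb group genes encode the machinery that keeps Hox genes silent, and of 21 listed, 16 were tested. Between control ages 8 of 16 fell, where 25.6% of all units did, and 0 rose, with a median of -0.94 against -0.19 over all units. Without early control array 1 or late control array 1 the count was 5. jing, which encodes a zinc-finger partner of Polycomb repressive complexes, had a mean of 681 ± 45.2 in late control embryos, against 2234 ± 542 in early ones (SD, n = 2 each, log2 change -1.64, limma adjusted p = 4.41e-05). Another jing probe set did not pass and read the other way (log2 change 0.88, adjusted p = 0.283). Pcl, the Polycomblike gene, had 305 ± 132 in late and 983 ± 17.2 in early control embryos (log2 change -1.78, adjusted p = 1.25e-04). Between E2f1 mutant ages 5 of 16 fell, where 21.7% of all units did and 13.9% rose, and 3 fell without early or late mutant array 1.

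In late E2f1 mutants 2 of 16 Polycomb genes were lower, where 3.84% of all units were, and 1 was higher, where 1.76% were. Caf1-55, the histone-binding subunit shared by Polycomb complexes, chromatin assembly factors and the Myb-MuvB complex that contains E2F and Rbf, had signals of 210.3 and 358.9 in mutants, against 2277.5 and 1980.9 in the control at 14 to 16 h (log2 change -2.90, SE 0.22, limma adjusted p = 1.09e-06). Its effect differed between ages by -2.05 (adjusted p = 0.00219). In early E2f1 mutants it had 1951.6 and 1551.3, against 3584.3 and 2879 in the control, which did not pass (log2 change -0.85, adjusted p = 0.0534). Sfmbt, a subunit of the DNA-binding Pho-RC complex, had 162.4 and 177.6 in late mutants, against 515.6 and 504.4 in the control (log2 change -1.57, limma adjusted p = 0.00425). E(z), the histone methyltransferase, had 441.6 and 592.3 in late mutants, against 315.3 and 297.5 in the control (log2 change 0.85, limma adjusted p = 0.0416). The E(z) call was lost without any 1 of these 4 arrays (adjusted p 0.0607 to 0.256) and in 3 other alternatives. In the 6 early genotype comparisons 0 of 16 passed, with 0 to 5 at an unadjusted p under 0.05, and Caf1-55 in E2f1 mutants had the lowest adjusted p of them. In early E2f1 mutants 1 or 2 passed as lower with the deposited scaling, median centring, the offset of 50 or the 50% filter, and without early control array 2 or early mutant array 2. With the E2f1 fragment 1 passed as higher without early control array 2.

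Trithorax group genes, which keep Hox genes active, gave 11 tested of 14 listed. Between control ages 5 of 11 fell, where 25.6% of all units did, and 0 rose, where 17.6% did (median -0.85 against -0.19 over all units), among them brm, the ATPase of the Brahma remodelling complex (log2 change -1.07, limma adjusted p = 2.42e-04), and Snr1, another subunit of it (-1.40, adjusted p = 5.09e-04). Between E2f1 mutant ages 6 of 11 fell, where 21.7% of all units did. In late E2f1 mutants 2 of 11 fell, where 3.84% of all units did. ash2, a subunit of histone H3 methyltransferase complexes, had 25.6 and 83.2, against 311.1 and 314.8 in the control (log2 change -2.23, SE 0.37, adjusted p = 0.00167, with 1 mutant array at the floor). Snr1 had 383.5 and 435.8 in late mutants, against 1145.8 and 1398.6 in the control (log2 change -1.56, limma adjusted p = 0.00185). The effect on ash2 differed between ages (-2.52, adjusted p = 0.0166), which was lost without early or late mutant array 1 or late control array 1 (adjusted p 0.0516 to 0.0599). In the 6 early genotype comparisons 0 of 11 passed, with 0 to 3 at an unadjusted p under 0.05. With the brightest probe set per gene, the lowest adjusted p was that of skd, a Mediator subunit gene, in E2f1 mutants (log2 change 0.83, adjusted p = 0.097). Each of the 6 early counts became 1 of 11 when an early control array was left out, array 1 with Rbf1, either array in Dp mutants and array 2 in the other 4 comparisons. A second probe set of the Trithorax gene kis, tested as its own unit, had a log2 change of 1.45 with E2f1/Dp (limma adjusted p = 0.0692). Between control ages it did not pass (0.19, adjusted p = 0.627), while the brighter kis set was lower (-0.95, adjusted p = 0.00801).

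Partners and downstream genes of the Hox proteins were read from fixed lists as well. Of 6 cofactor genes 3 were tested, tsh, disco and disco-r, and exd and hth, the partners that bind DNA with Hox proteins, were not among them. tsh, the zinc-finger gene that acts with Hox genes in the trunk, had 649 ± 37.7 in late control embryos and 971 ± 23.7 in early ones (log2 change -0.54, limma adjusted p = 0.0244), which was lost without either early array or late array 1 (adjusted p 0.0533 to 0.141). The cofactors gave 0 of 3 in the other 9 comparisons, and 0 to 2 at an unadjusted p under 0.05. Between E2f1 mutant ages 1 of 3 passed as lower with the deposited scaling, without the filter on dim probe sets or without late mutant array 1. Of 16 Hox target genes 10 were tested, and 7 of 10 fell between control ages, where 25.6% of all units did, with a median of -1.11 against -0.19 over all units. That count rested on single arrays: it was 3 without early control array 1, 1 without late control array 1 and 5 without either of the other arrays. fkh, the forkhead gene that Scr activates in the salivary gland, had 176 ± 134 in late control embryos, against 563 ± 92.1 in early ones (log2 change -1.99, adjusted p = 0.00275). ems, a homeobox gene of the head and of the posterior spiracles, had a log2 change of -2.19 (adjusted p = 0.00683), which was lost without early control array 1 (adjusted p = 0.0576) or late control array 1 (adjusted p = 0.115). Between E2f1 mutant ages 2 of 10 fell, where 21.7% of all units did: betaTub60D (log2 change -1.45, adjusted p = 0.0125) and upd1 (adjusted p = 0.0311), with upd1 at the floor on both late arrays. The count was 0 without early mutant array 1, 1 without either late array and 6 with the deposited scaling. In the 7 genotype comparisons 0 of 10 targets passed, and 0 to 2 had an unadjusted p under 0.05. With the brightest probe set per gene, the lowest adjusted p of these was that of grn, which encodes a GATA factor, in early E2f1 mutants (log2 change -0.86, adjusted p = 0.233). A dimmer betaTub60D probe set, tested as its own unit, had a log2 change of 1.63 in early E2f1 mutants (limma adjusted p = 0.0825). The brighter betaTub60D set read 0.91 there (adjusted p = 0.259). Leaving out early control array 2 gave 1 of 10 in early E2f1 mutants, and leaving out late control array 2 gave 1 of 10 in late ones.

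**Figure D4:**
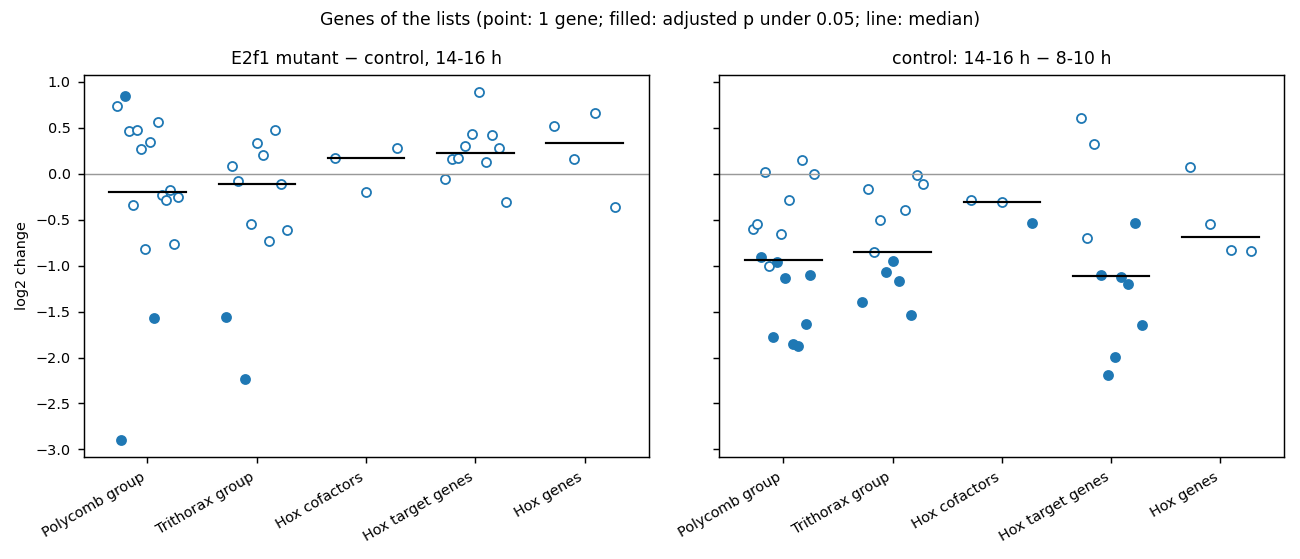
Log2 change (y axis) of each tested member of 4 lists and of the Hox genes (x axis), in E2f1 mutants minus control at 14 to 16 h (left) and in the control between ages (right), with filled points for changes that passed and lines at the medians. The Hox points are open in both panels, Caf1-55 is the lowest point on the left, and filled points on the right all lie below 0.

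Tissue markers and an index of embryo age differed between some of these groups. The index used the 300 genes that rose most and the 300 that fell most between the control ages. It was scaled so that early and late control embryos average 0 and 1. Its genes were chosen on these same control arrays, which fixes the control means. Offsets of other groups are therefore not measured shifts of age. The index was 0.222 ± 0.019 in early E2f1 mutants, 0.234 ± 0.123 in Dp mutants and 0.126 ± 0.0196 with E2f1/Dp, against 0 ± 0.0753 in the early control (SD, n = 2 each). It was 0.0509 with E2f2/Dp, 0.0178 with Rbf1, -0.0752 with the fragment and 0.888 ± 0.0127 in late E2f1 mutants. The summed signal of 7 muscle markers was 1613.6 and 3803.7 with the E2f1 fragment, against 13441.8 and 17189.3 in the control, and 4 of the 7 fell, where 0.691% of all units did. In Dp mutants, where the brighter Antp probe set had its highest mean, 8 midgut markers summed to 18364.4 and 9590, against 2932.1 and 4226.7 in the control. Of the 8, 2 rose, where 2.08% of all units did. The same sum was 2192.9 and 2398.8 in late E2f1 mutants, against 16624.1 and 8912 in the control, and 5 of the 8 fell, where 3.84% of all units did. Between control ages all 7 muscle markers rose, where 17.6% of all units did, and all 6 neuroblast markers fell, where 25.6% did. No more than 2 members of these 3 lists were at the floor on any array. The part of embryo age and tissue make-up in the values of bcd, Caf1-55, ash2 or the Hox genes was not tested.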

How the data were processed

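The deposited table holds a linear signal intensity per probe set, which per the file's values the authors scaled to a common trimmed mean (495 to 498 on the 18 arrays, 2% trimmed at each end). The software that summarised probes is not given in the sources used here. Array medians differed by 0.244 log2, so quantile normalization was applied, a floor was set at the 20th percentile of all values (signal 47.5), the deposited intensity was log2 transformed, the dimmest 30% of probe sets were left out and the brightest probe set of each gene was kept (8975 units, of which 7927 are named genes). A fit of 9 group means to 18 arrays used limma 3.58.1 in R 4.3.3 (eBayes with trend, 9 residual and 6.16 prior degrees of freedom, two-sided tests, Benjamini-Hochberg adjustment over the units of a comparison, threshold 0.05). The number of arrays, 2 per group, limits the precision. Errors of signals are SDs of deposited values. Overlap of groups was judged on normalized values, which can order arrays differently from deposited signals.

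The Hox members and the gene lists were chosen with earlier results of these data known. The rule for named genes takes the Hox genes, up to 2 members per direction of each list with the smallest p among those that passed, and the 2 genes most like each Hox gene. Where no member of a list passed in several comparisons, 1 member at most is named. Sequences and coordinates were not used. The limma fit was tried on simulated log2 values with normal noise, for the E2f1/Dp comparison alone. Normalization, the filter and the choice of probe set were not part of that trial. Alternatives were the deposited scaling, median centring, an offset of 50 in place of the floor, neither floor nor offset, a dimness filter of 0 or 50%, every probe set as a unit, eBayes with no trend or robust, replicate number as a block, and each array left out. For the list genes and list counts they were chosen after seeing the data. Replicate numbers were not used as pairs in the main fit. Deviations of same-numbered arrays correlated between -0.161 and 0.15 over 36 pairs of groups, with 4 pairs above 0.1. Whether same-numbered arrays of some groups share a collection was not tested.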

Additional observations from a re-analysis of the deposited data

Results flagged for a closer look

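By the interaction term of the limma fit, the effect of the E2f1 mutation differed between 14 to 16 h and 8 to 10 h for 0 Hox genes. It differed for 4 genes of the Antennapedia complex, Polycomb and Trithorax lists. PCNA, read with the manipulated genes, also passed this term, and kept the call in 18 of 18 alternatives (log2 difference 1.21 to 1.77). For the 4 list genes the late minus early log2 difference was -4.35 for bcd (adjusted p = 2.51e-04), -2.05 for Caf1-55 (adjusted p = 0.00219), -2.52 for ash2 (adjusted p = 0.0166) and 1.94 for Ama (adjusted p = 0.0399). The term was passed by 2.75% of all units. The call was kept in 18 of 18 alternatives for bcd and Caf1-55, and lost in 3 of 18 for ash2 and 9 of 18 for Ama.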

How the results depend on the processing

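The number of Hox genes that passed was 0 in 144 of 144 pairs of an alternative with a comparison, those of the replicate block among them. The replicate block changed no Hox call, and of the other named calls it ended that of E(z) in late E2f1 mutants (adjusted p = 0.0521). Of 370 log2 changes of the Hox genes under alternatives other than leaving out an array, 363 kept their direction and 7 turned, with a lowest adjusted p of 0.224. With median centring these were Dfd (-0.0172) and Antp (0.0215) with E2f1/Dp. With an offset of 50 they were Dfd with E2f1/Dp (-0.00239) and Scr with the E2f1 fragment (-0.143), and without a floor Scr with the fragment (-0.642). With the deposited scaling they were Antp with E2f1/Dp (0.0922) and Dfd in late E2f1 mutants (-0.00669). The cause was not tested. Leaving out 1 array turned 39 of 176 values, and the lowest adjusted p was then 0.0754, for Dfd between E2f1 mutant ages. With E2f1/Dp the range was -0.30 to 0.31 for Dfd, -0.11 to 1.13 for Scr and -0.30 to 0.26 for Antp, and with E2f2/Dp -0.27 to 0.30 for Antp. With the E2f1 fragment the range was -1.65 to 0.35 for pb, -0.43 to 0.19 for Dfd, -0.93 to 1.11 for Scr and -0.31 to 0.26 for Antp. With Rbf1 the range was -0.24 to 0.41 for Antp, and in Dp mutants -0.31 to 0.43 for Dfd and -0.013 to 0.84 for Scr. In early E2f1 mutants the range was -0.34 to 0.83 for Dfd and -0.30 to 0.71 for Antp, and in late ones -0.81 to 0.0771 for pb, -0.0242 to 0.34 for Dfd and -0.0326 to 1.07 for Antp. Between control ages the range was -0.22 to 0.35 for Antp, and between E2f1 mutant ages -0.56 to 0.32 for pb and -0.17 to 0.94 for Antp. For the late minus early difference of the mutant effect the range was -0.67 to 0.50 for Dfd, -0.54 to 0.35 for Scr and -0.24 to 0.87 for Antp. Under the 50% filter 1 Hox gene was left to test.

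Counts over all units moved more. Leaving out 1 array gave 6 to 100 with E2f1/Dp (8 with all arrays), 3 to 194 with E2f2/Dp (7), 37 to 230 with the fragment (71), 47 to 353 with Rbf1 (129), 71 to 785 in Dp mutants (359), 56 to 748 in early E2f1 mutants (229), 203 to 357 in late ones (503), 114 to 538 for the difference between ages (247) and 2129 to 2700 between mutant ages (3200). In every early genotype comparison, and for the difference between ages, the highest of these counts came without early control array 2. The early genotype comparisons all share that control. Other alternatives gave as few as 39 with the fragment, 56 with Rbf1 and 166 in Dp mutants, and 5 to 19 with E2f1/Dp and 5 to 15 with E2f2/Dp. Of 41 calls of the manipulated genes, PCNA and the list genes (at most 2 per list, comparison and direction, not all of them named in the text), 29 passed under every alternative, and 49 of 593 values lost the call with 0 reversed. The late E2f1 mutant stage index was 0.912 with 100 genes in each direction.

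The Hox probe sets had low signal, and each group had 2 arrays. The sizes needed to pass, given with the results, also depend on how many other units passed. Of the 8 Hox genes, 4 were not analysed here.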
